A study of Homo sapiens with 12 samples.

Results

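The genes described here are 10 early-response genes and their regulators: the zinc-finger transcription factors EGR1, EGR2 and EGR3, the synaptic scaffold gene ARC, the immediate early response genes IER2, IER3 and IER5, serum response factor (SRF), and the EGR co-repressors NAB1 and NAB2. They were chosen by symbol from a table of 20323 genes, each symbol stood at 1 identifier, and the list was drawn up with earlier results of these libraries known, in which ARC and EGR1 were already seen to be high under AA. For ARC and EGR1 the AA comparison is therefore given as a description. RNA was sequenced from A549 cells, a human lung adenocarcinoma line, in 4 groups of 3 libraries: LKB1-deficient cells pretreated with high-dose AA, LKB1-deficient cells pretreated with phosphate-buffered saline (PBS), LKB1-intact cells pretreated with AA, and LKB1-intact cells pretreated with PBS. LKB1 is the kinase encoded by STK11. The genotype label says wild type for the cells taken as intact. The sample titles name those cells WT and the deficient cells con, and call AA vitamin C. Neither a dose, a duration nor the way the 2 genotypes were made is given in the labels. The labels do not say whether the 3 libraries of a group are separate cultures, and the p-values speak only of the spread among libraries, part or all of which may be technical. They name no batch or date.

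Immediate early genes are transcribed within minutes of a growth factor, calcium or stress signal, without new protein synthesis. SRF binds the CArG box in their promoters together with ternary complex factors such as ELK1 and ELK4, which the kinase ERK phosphorylates, or, at cytoskeletal genes, with the actin-regulated cofactors MRTFA and MRTFB. EGR proteins then bind a GC-rich site in further genes, among them NAB2, and the NAB proteins bind EGR1 and EGR2 and repress their activity.

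Upstream sequence was taken from RefSeq (GRCh38.p14), 250 bases before each annotated start, for the 7 members found in the promoter table (EGR1, EGR2, IER2, IER5, SRF, NAB1 and NAB2), which have 12 annotated starts. A CArG box stood upstream of 3 of these starts, and those 3 are printed because they are the ones that carry the SRF motif. Capitals mark the CArG box, the EGR site GCGNGGGCG and the CRE core TGACG, the core of the element that CREB binds, on either strand. The EGR1 stretch is chr5:138465229-138465478 on the plus strand. The SRF stretch, for its first start, is chr6:43171019-43171268 on the plus strand. The EGR2 stretch, for the third start, is chr10:62816367-62816616 on the minus strand, and lies inside the longest EGR2 transcripts with no annotated exon over it.
EGR1: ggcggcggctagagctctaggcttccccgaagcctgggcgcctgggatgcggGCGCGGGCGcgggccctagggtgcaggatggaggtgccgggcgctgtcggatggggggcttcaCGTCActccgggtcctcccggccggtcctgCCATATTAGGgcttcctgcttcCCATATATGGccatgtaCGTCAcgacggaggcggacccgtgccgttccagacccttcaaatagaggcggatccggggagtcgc
SRF: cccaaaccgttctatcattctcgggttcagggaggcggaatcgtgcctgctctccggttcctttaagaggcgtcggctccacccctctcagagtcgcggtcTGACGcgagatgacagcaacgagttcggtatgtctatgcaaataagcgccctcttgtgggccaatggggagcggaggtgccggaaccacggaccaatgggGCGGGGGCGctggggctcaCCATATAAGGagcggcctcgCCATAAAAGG
EGR2: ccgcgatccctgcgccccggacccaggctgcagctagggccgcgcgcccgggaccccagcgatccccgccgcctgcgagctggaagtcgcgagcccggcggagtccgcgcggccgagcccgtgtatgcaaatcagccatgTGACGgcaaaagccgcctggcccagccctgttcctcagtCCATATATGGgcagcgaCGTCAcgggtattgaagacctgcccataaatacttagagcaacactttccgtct

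Counted back from the start, with -1 as the last base before it, EGR1 held CArG boxes at -105 to -96 and at -83 to -74. The second of these shares its first base with an ETS core GGAA on the other strand, at -86 to -83, the motif of the ternary complex factors. SRF, which is itself a known SRF target, held CArG boxes at -30 to -21 and -10 to -1, and EGR2 held 1 at -71 to -62. Among 35116 promoter windows of the same length, 1.16% held a CArG box on either strand and 0.0313%, which is 11 windows, held at least 2. An EGR site was found upstream of EGR1, of the first SRF start, of 2 NAB1 starts whose windows overlap and of NAB2, against 8.41% of all windows. The CRE core was found upstream of EGR1, EGR2, IER2, SRF and NAB1, against 21.2% of all windows, and the ETS core is so short that 92.7% of windows hold it. A match is a run of letters and not a shown binding site.

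**Figure D1:**
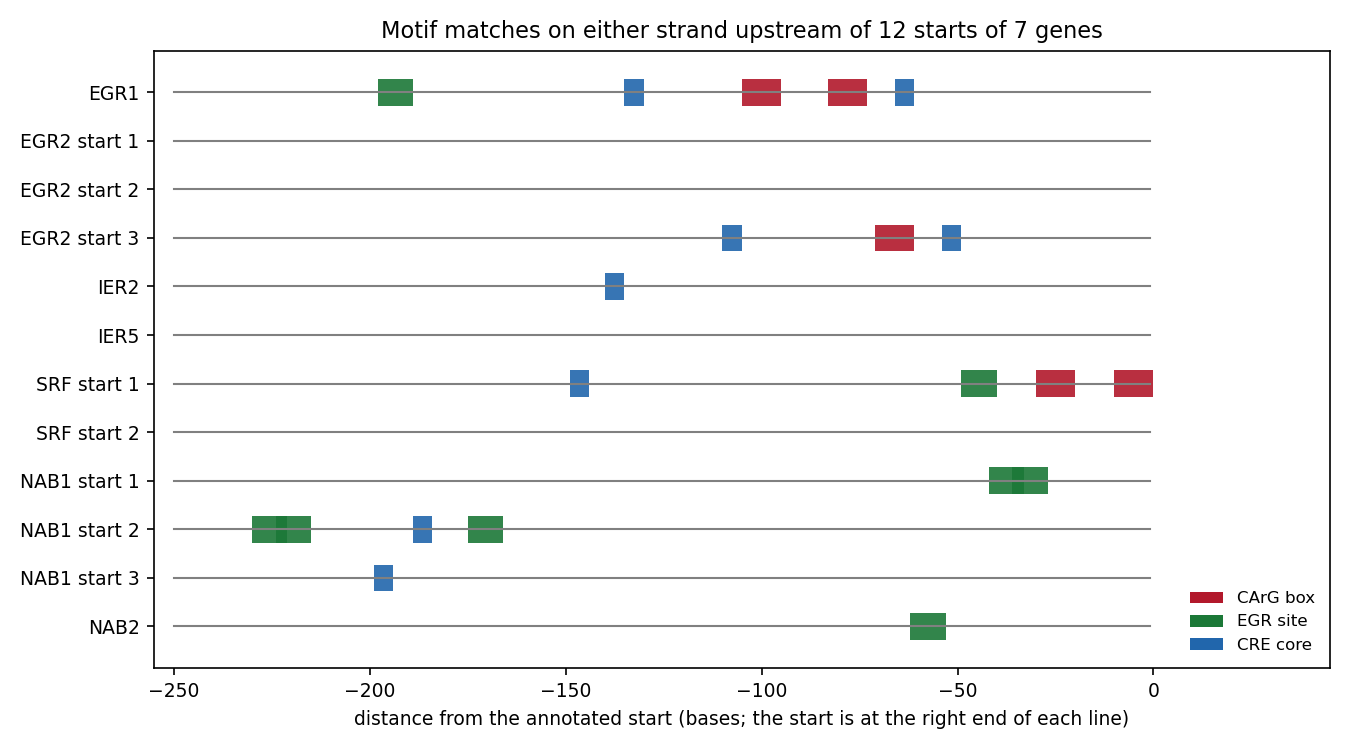
Position of CArG boxes (red), EGR sites (green) and CRE cores (blue) on either strand in the 250 bases upstream of 12 annotated starts of 7 genes; the horizontal axis is the distance from the start in bases. EGR1 and the first SRF start hold 2 CArG boxes each and the third EGR2 start holds 1, while the other starts hold none.

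The libraries held 16055534 to 20306129 estimated counts. STK11 averaged 6.64 ± 0.910 CPM (counts scaled to library size with TMM factors) in LKB1-deficient AA libraries, 5.79 ± 0.862 in LKB1-deficient PBS libraries, 26.1 ± 2.0 in LKB1-intact AA libraries and 24.5 ± 0.917 in LKB1-intact PBS libraries (SD, n = 3 each), so no library went against its genotype label. The 6 epithelial markers, nearly all KRT8, KRT18 and KRT7, summed to 2525 to 2603 CPM in LKB1-deficient AA libraries, 2488 to 2732 CPM in LKB1-deficient PBS libraries, 3896 to 4043 CPM in LKB1-intact AA libraries and 2785 to 2890 CPM in LKB1-intact PBS libraries. KRT19 and CDH1 stayed at or under 2.43 CPM. The share of counts from the 13 mitochondrial protein genes was 2.53 to 2.62% in LKB1-deficient AA libraries, 5.07 to 5.36% in LKB1-deficient PBS libraries, 3.61 to 3.72% in LKB1-intact AA libraries and 5.16 to 5.33% in LKB1-intact PBS libraries. The 3 endothelial markers, nearly all CDH5, summed to 0.719 to 1.68 CPM in LKB1-deficient AA libraries, 6.56 to 9.22 CPM in LKB1-deficient PBS libraries, 3.22 to 4.29 CPM in LKB1-intact AA libraries and 9.19 to 10.7 CPM in LKB1-intact PBS libraries. These 3 measures moved with AA or, for the epithelial markers, with the intact AA group, and their part in the results below was not tested. The 4 leukocyte markers summed to at most 1.09 CPM, with CD3E at 0, and the 4 fibroblast markers to 11.3 to 16.7 CPM, with COL1A2 at 0. In bulk RNA, fewer cells of a kind and less RNA per cell cannot be told apart.

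EGR1 is a growth-factor-induced activator and repressor of transcription (ENSG00000120738, chromosome 5, 138465490 to 138469315 on GRCh38, plus strand, 2 exons). It measured 22.9, 21.7 and 23.1 CPM in LKB1-deficient AA libraries, against 0.429, 0.729 and 0.307 CPM in LKB1-deficient PBS libraries. In LKB1-intact cells the values were 16.2, 19.1 and 17.3 CPM under AA, against 0.692, 0.973 and 0.562 CPM under PBS. All 6 AA libraries lay above all 6 PBS libraries, and the 3 deficient AA libraries lay above the 3 intact ones. The PBS values rest on 5 to 18 counts per library. The ratio of summed counts, scaled by library size, of AA over PBS was 46.2 in deficient cells (95% interval 30.9 to 72.3, covering counting error only) and 23.4 in intact cells (17.0 to 33.2). The fitted changes of EGR1 ranked 20 and 30 from the top among 12718 genes tested. These ranks are a description, because EGR1 was listed with its high level under AA already known.

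EGR2 and EGR3, which share the zinc-finger domain of EGR1 and bind the same kind of site, were scarce. EGR2 (ENSG00000122877, chromosome 10, 62811996 to 62919900, minus strand) had 12, 4 and 9 counts in LKB1-deficient AA libraries and none in the 3 LKB1-deficient PBS libraries. It had 2, 3 and 4 counts in LKB1-intact AA libraries and none in the 3 LKB1-intact PBS libraries. It was the 1 member of the 10 that did not pass the filter on low counts. A floor of 3 counts was set for the PBS group. Over it, the scaled EGR2 count under AA was 7.02-fold in deficient cells and 2.81-fold in intact cells. These folds leave out the counting error of the AA libraries and are not lower limits. Under AA the summed EGR2 count, scaled by library size, was 2.66 times as high in deficient as in intact cells (95% interval 1.20 to 6.47, covering counting error only).

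EGR3 (ENSG00000179388, chromosome 8, 22687659 to 22693302, minus strand) had 34, 36 and 24 counts in LKB1-deficient AA libraries, against 1, 3 and 2 counts in LKB1-deficient PBS libraries. In LKB1-intact cells it had 34, 34 and 13 counts under AA, against 3, 1 and 1 counts under PBS. Every AA library was above every PBS library, and the deficient and intact AA libraries overlapped. The scaled count ratio of AA over PBS was 13.2 in deficient cells (95% counting interval 5.84 to 36.9) and 15.2 in intact cells (6.25 to 48.0). EGR3, like ARC, passed the filter on low counts only through its AA libraries, so neither its AA change nor the difference in that change carries a test here. The EGR3 locus overlaps a transcript on the other strand over 3153 bases, and whether counting used strand is not given in the sources used here.

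ARC encodes a cytoskeleton-associated protein known from the synapses of active neurons (ENSG00000198576, chromosome 8, 142611044 to 142614472, minus strand, 3 exons). It measured 21.6, 24.4 and 23.7 CPM in LKB1-deficient AA libraries, against 0.123, 0.122 and 0.246 CPM in LKB1-deficient PBS libraries. In LKB1-intact cells ARC measured 46.4, 57.1 and 53.1 CPM under AA, against 0.503, 0.162 and 0.225 CPM under PBS. The AA and PBS libraries did not overlap, and every intact AA library held more ARC than any deficient one. PBS libraries held 2 to 8 ARC counts each. The scaled count ratio of AA over PBS was 142.0 in deficient cells (95% counting interval 71.9 to 329.6) and 181.5 in intact cells (109.9 to 324.8). The fitted log2 change ranked 4 and 6 from the top. These ranks too are a description, because ARC was listed with its high level under AA already known. The 4 neuronal markers, read because neurons express ARC, summed to 0.219 to 0.524 CPM in LKB1-deficient AA libraries, 0.552 to 1.54 CPM in LKB1-deficient PBS libraries, 0.381 to 0.834 CPM in LKB1-intact AA libraries and 0.899 to 1.57 CPM in LKB1-intact PBS libraries.

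The balance of ARC and EGR1 differed between the genotypes under AA. The ratio of ARC to EGR1 in CPM was 0.941, 1.13 and 1.03 in LKB1-deficient AA libraries, against 2.87, 2.99 and 3.07 in LKB1-intact AA libraries. The ranges do not overlap. With 3 libraries a side, an exact permutation test cannot give a p under 0.1, and none is given for this ratio.

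**Figure D2:**
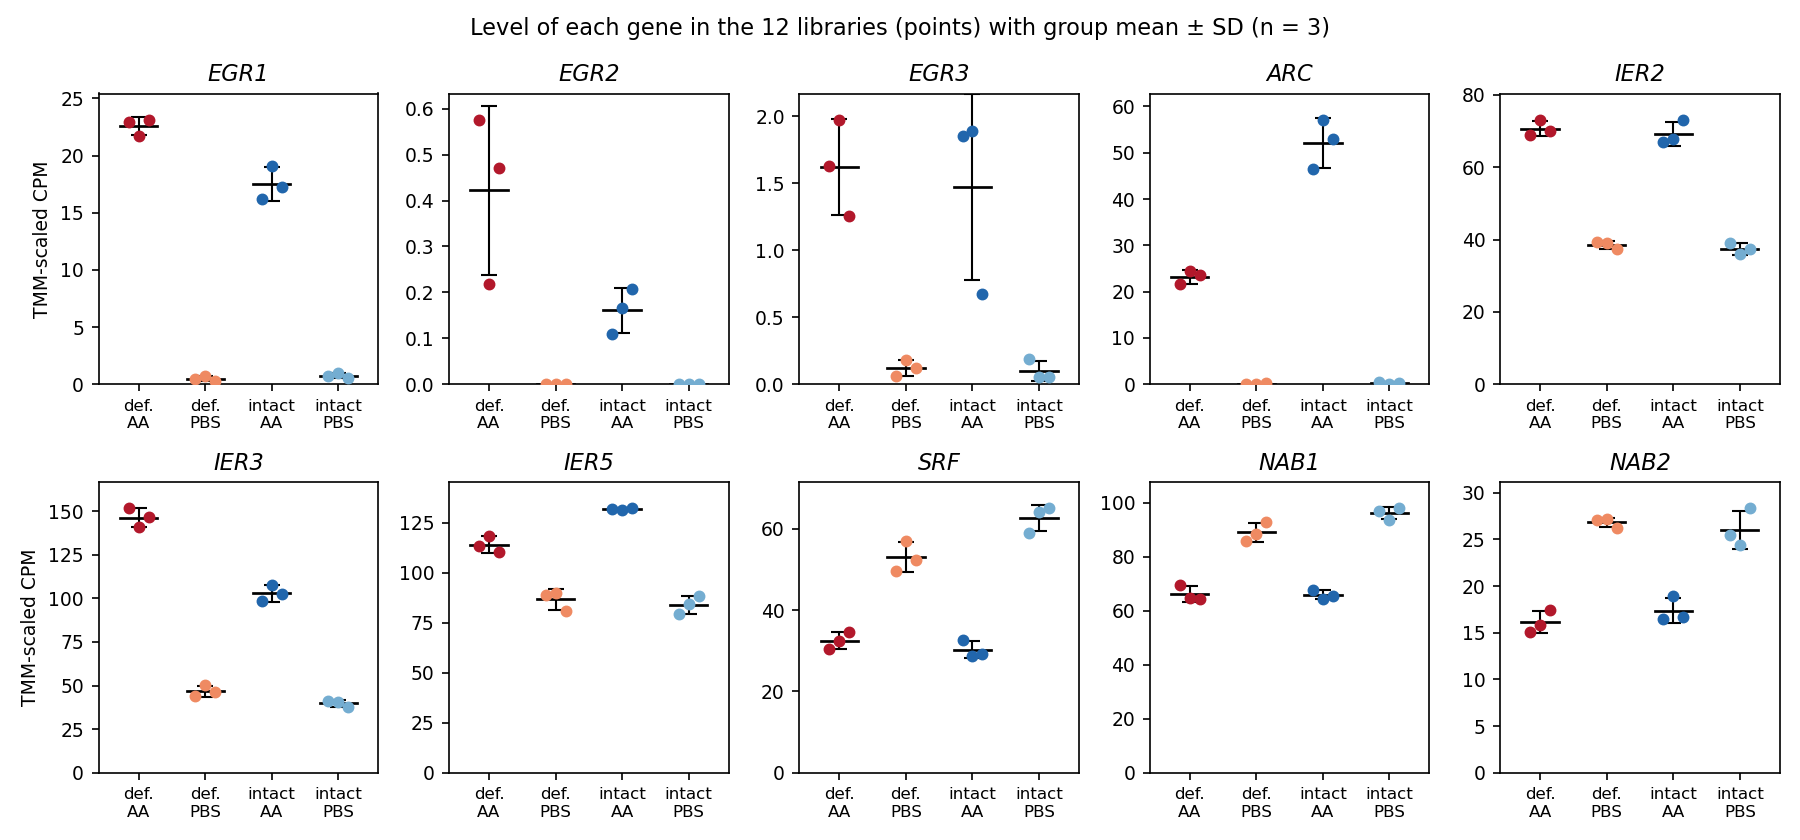
TMM-scaled CPM of the 10 genes, 1 panel a gene with its own vertical scale from 0, in LKB1-deficient AA, LKB1-deficient PBS, LKB1-intact AA and LKB1-intact PBS libraries; points are libraries, lines the mean and bars ± SD (n = 3). EGR1, EGR2, EGR3 and ARC sit near 0 under PBS, the 3 IER genes are higher under AA, and SRF, NAB1 and NAB2 are lower under AA.

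The other 6 members were measured well above the filter in every group, and their AA change was tested with edgeR's quasi-likelihood test, with Benjamini-Hochberg adjustment over all 12718 genes. All 6 were called (adjusted p under 0.05) in deficient cells, where 74.4% of all genes tested were called, and all 6 in intact cells, where 69.8% were. In both genotypes 3 rose, IER2, IER3 and IER5, and 3 fell, SRF, NAB1 and NAB2. With that many genes called, the count of members is not a result about them, and their sizes and order are given instead.

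IER3, a stress- and NF-kB-induced gene that modulates apoptosis and ERK signalling (ENSG00000137331, chromosome 6, 30743199 to 30744554, minus strand), had the highest level per transcript length of the set under AA. It measured 151.5, 140.9 and 146.5 CPM in LKB1-deficient AA libraries, against 43.8, 50.2 and 46.1 CPM in LKB1-deficient PBS libraries. In LKB1-intact cells it measured 98.2, 107.6 and 102.5 CPM under AA, against 41.1, 40.6 and 37.5 CPM under PBS. All 4 groups stood apart from each other. The rise was 3.13-fold in deficient cells (log2 1.65 ± 0.0514, edgeR adjusted p = 2.66e-17) and 2.59-fold in intact cells (log2 1.37 ± 0.0535, edgeR adjusted p = 2.77e-15). An antisense gene, IER3-AS1, overlaps it over 394 bases.

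IER2, which encodes a nuclear protein induced by growth factors (ENSG00000160888, chromosome 19, 13150415 to 13154908, plus strand), measured 69.0, 73.0 and 70.0 CPM in LKB1-deficient AA libraries, against 39.3, 39.1 and 37.4 CPM in LKB1-deficient PBS libraries. In LKB1-intact cells IER2 measured 67.0, 67.9 and 73.1 CPM under AA, against 39.1, 36.0 and 37.3 CPM under PBS. The AA libraries of both genotypes lay together, as did the PBS libraries. IER2 rose 1.83-fold in deficient cells (edgeR adjusted p = 1.38e-12) and 1.85-fold in intact cells (edgeR adjusted p = 1.94e-12). Its locus overlaps an antisense transcript over 1123 bases.

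IER5, which binds protein phosphatase PP2A and promotes dephosphorylation of heat shock factor HSF1 (ENSG00000162783, chromosome 1, 181088712 to 181092899, plus strand, 1 exon), measured 113.2, 118.5 and 110.2 CPM in LKB1-deficient AA libraries, against 89.0, 90.1 and 80.7 CPM in LKB1-deficient PBS libraries. In LKB1-intact cells the values were 131.9, 131.4 and 132.1 CPM under AA, against 79.3, 84.3 and 88.3 CPM under PBS. IER5 was highest in the intact AA libraries, and the PBS libraries of the genotypes overlapped. The rise was 1.32-fold in deficient cells (log2 0.40 ± 0.0461, edgeR adjusted p = 9.15e-08) and 1.57-fold in intact cells (log2 0.65 ± 0.0457, edgeR adjusted p = 4.72e-11).

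SRF, the MADS-box factor that binds the CArG boxes shown above (ENSG00000112658, chromosome 6, 43171299 to 43181507, plus strand, 7 exons), went the other way from EGR1. It measured 30.5, 32.5 and 34.7 CPM in LKB1-deficient AA libraries, against 49.7, 57.0 and 52.4 CPM in LKB1-deficient PBS libraries. In LKB1-intact cells SRF measured 32.7, 28.7 and 29.3 CPM under AA, against 59.0, 64.1 and 65.0 CPM under PBS. The AA libraries of the genotypes overlapped, and every PBS library was above every AA library. SRF fell to 0.613 of its PBS level in deficient cells (log2 -0.71 ± 0.0663, edgeR adjusted p = 3.09e-09) and to 0.482 in intact cells (log2 -1.05 ± 0.0659, edgeR adjusted p = 7.08e-12). EGR1 and the first SRF start each hold a pair of CArG boxes in the printed stretches, and their mRNA levels differed in opposite directions under AA.

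NAB1 (ENSG00000138386, chromosome 2, 190646746 to 190692766, plus strand) measured 69.5, 64.9 and 64.3 CPM in LKB1-deficient AA libraries, against 86.0, 88.5 and 92.9 CPM in LKB1-deficient PBS libraries. In LKB1-intact cells NAB1 measured 67.8, 64.5 and 65.6 CPM under AA, against 96.8, 93.7 and 98.0 CPM under PBS. The AA libraries of the genotypes overlapped and lay below all PBS libraries. NAB1 fell to 0.744 of its PBS level in deficient cells (edgeR adjusted p = 1.53e-08) and to 0.687 in intact cells (edgeR adjusted p = 4.75e-10). Antisense long non-coding genes overlap the NAB1 locus.

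NAB2, in many cells itself induced by EGR1 (ENSG00000166886, chromosome 12, 57088894 to 57095476, plus strand), measured 15.1, 15.8 and 17.5 CPM in LKB1-deficient AA libraries, against 27.0, 27.2 and 26.3 CPM in LKB1-deficient PBS libraries. In LKB1-intact cells NAB2 measured 16.5, 18.9 and 16.7 CPM under AA, against 25.4, 24.4 and 28.3 CPM under PBS. Its AA libraries were all below its PBS libraries, and the genotypes overlapped within each treatment. NAB2 fell to 0.601 of its PBS level in deficient cells (log2 -0.73 ± 0.0794, edgeR adjusted p = 2.88e-08) and to 0.666 in intact cells (log2 -0.59 ± 0.0788, edgeR adjusted p = 1.04e-06). The end of NAB2 overlaps STAT6 on the other strand over 69 bases.

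**Figure D3:**
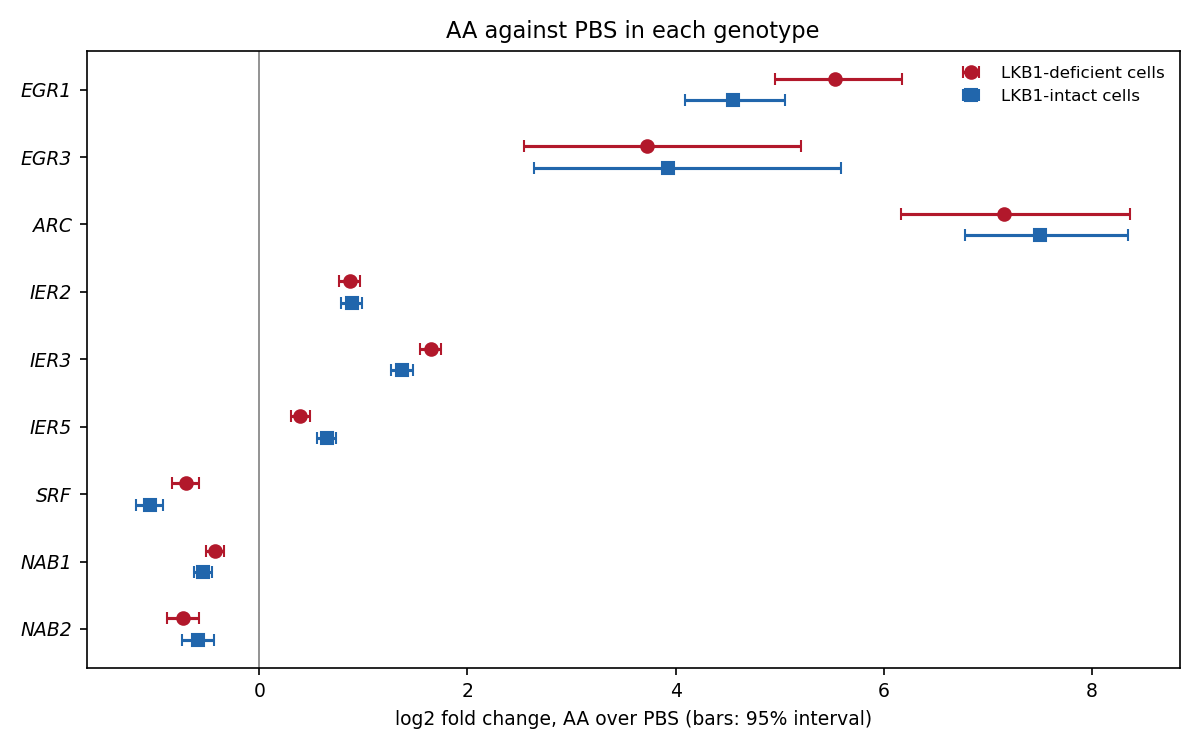
Log2 fold change of AA over PBS for the 9 genes that passed the filter, in LKB1-deficient cells (red circles) and LKB1-intact cells (blue squares), fitted with 95% intervals or, for EGR1, EGR3 and ARC, as the scaled count ratio with its 95% counting interval. ARC, EGR1 and EGR3 lie far to the right, drawn as the log2 of linear ratios of 13.2 to 181.5. The IER genes lie at log2 changes of 0.40 to 1.65, and SRF, NAB1 and NAB2 below 0.

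On the scale of FPKM (fragments divided by transcript length and sequencing depth), which allows levels of different genes to be set side by side, IER3 led under AA with 121.5 ± 4.12 FPKM in deficient cells and 82.2 ± 3.88 FPKM in intact cells (SD, n = 3 each). IER2, IER5 and NAB1 followed in both genotypes under AA, in that order and with no overlap of neighbours. In LKB1-deficient AA libraries ARC (8.11 ± 0.535 FPKM), SRF (7.93 ± 0.534), EGR1 (7.41 ± 0.254) and NAB2 (6.75 ± 0.535) came next, and each overlapped its neighbour. In LKB1-intact AA libraries ARC stood alone at 17.5 ± 1.82 FPKM, NAB2 (7.09 ± 0.594) and SRF (7.08 ± 0.502) overlapped, and EGR1 was below them at 5.54 ± 0.477. EGR3 and EGR2 were last in every group, under 0.5 FPKM on average. Under PBS the order was led by IER3 and NAB1, at 36.7 ± 2.52 and 32.2 ± 1.85 FPKM in deficient cells, and at 31.1 ± 1.53 and 33.2 ± 0.978 FPKM in intact cells, where the pair overlapped. EGR1 was below SRF and NAB2 under PBS with no overlap in either genotype.

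EGR1 was already known to be high under AA, so the level of the co-repressors relative to EGR1 is given as a description. It was far lower under AA, and its PBS values rest on 5 to 18 EGR1 counts per library. NAB1 and NAB2 together, in FPKM, were 3.88 to 3.96 times the level of EGR1 in LKB1-deficient AA libraries, against 180.5 to 459.8 times in LKB1-deficient PBS libraries. In LKB1-intact cells the ratio was 4.80 to 5.78 under AA, against 137.0 to 255.5 under PBS. The summed NAB level itself was 27.6 to 30.1 FPKM in LKB1-deficient AA libraries and 41.3 to 44.6 FPKM in LKB1-deficient PBS libraries, and 29.1 to 29.6 FPKM in LKB1-intact AA libraries and 41.9 to 45.2 FPKM in LKB1-intact PBS libraries, so most of the shift of the ratio lies in EGR1.

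The difference in AA change between the genotypes was tested for the 7 members that passed the filter without their AA libraries. It was called for 4 of the 7, EGR1, IER3, IER5 and SRF, and for 44.6% of all genes tested. EGR1 had the larger rise in deficient cells, by 0.97 on the log2 scale (edgeR adjusted p = 0.0333), or 0.98 with a standard error of 0.406 in DESeq2 (adjusted p = 0.0409). That call was lost without LKB1-deficient PBS replicate 1, LKB1-deficient PBS replicate 3 or LKB1-intact PBS replicate 2, with edgeR adjusted p of 0.0866, 0.129 and 0.185, and each of these libraries holds 5 to 18 EGR1 counts. IER3 rose more in deficient cells, by 0.27 (SE 0.0750, edgeR adjusted p = 0.00489). IER5 rose less in deficient cells, by -0.25 (SE 0.0650, edgeR adjusted p = 0.00299). SRF fell less in deficient cells, a difference of 0.35 (SE 0.0938, edgeR adjusted p = 0.00453). Each of these differences also holds the gap between the genotypes under PBS, where no member was called. For EGR1 the PBS counts are too few to decide that gap. The call of IER3 was lost with an offset for transcript length (edgeR adjusted p = 0.0743), and that of IER5 on FPKM values (limma adjusted p = 0.0586 to 0.0716).

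For IER2, NAB1 and NAB2 the difference in AA change did not pass. IER2 differed by -0.02 with a 95% interval of -0.16 to 0.13. NAB1 (0.12, interval -0.01 to 0.24) and NAB2 (-0.15, interval -0.37 to 0.07) did not pass either. NAB1 passed with library size as the only scaling (0.17, edgeR adjusted p = 0.0288).

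Set side by side under AA, 4 of 9 members differed between deficient and intact cells, against 59.0% of all genes tested. ARC was lower in deficient cells, at 23.2 ± 1.48 CPM, against 52.2 ± 5.39 CPM in intact cells (SD, n = 3 each), a ratio of 0.445 (log2 -1.17 ± 0.0824, edgeR adjusted p = 7.47e-11). EGR1 was higher in deficient cells, at 22.6 ± 0.780 CPM, against 17.5 ± 1.49 CPM in intact cells, a ratio of 1.29 (log2 0.37 ± 0.0993, edgeR adjusted p = 0.00325). IER3 was higher in deficient cells by 1.42-fold (edgeR adjusted p = 4.25e-09), and IER5 was lower, at 0.865 of its intact level (edgeR adjusted p = 0.000313). The EGR1 call was lost on log2(FPKM + 0.1) (limma adjusted p = 0.105). IER2, EGR3, SRF, NAB1 and NAB2 were not called under AA, with ratios between 0.929 for NAB2 and 1.11 for EGR3, whose interval ran from 0.672 to 1.82. SRF alone of these 5 passed under an alternative, with the offset for transcript length (0.17 on the log2 scale, edgeR adjusted p = 0.0413).

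Under PBS, 0 of 9 members were called between deficient and intact cells, against 0.275% of all genes tested (edgeR, adjusted p under 0.05). DESeq2 and limma on FPKM also called 0. For ARC, EGR3 and EGR1 the missing call cannot decide whether the genotypes differ, because the PBS libraries hold too few counts. Those libraries held 2 to 8 counts of ARC, 1 to 3 of EGR3 and 5 to 18 of EGR1. ARC and EGR3 passed the filter on low counts only through their AA libraries. Deficient over intact, the counting interval of the scaled ratio ran from 0.208 to 1.43 for ARC. It ran from 0.325 to 5.29 for EGR3 and from 0.377 to 1.12 for EGR1. An unadjusted p under 0.05 was found for 3 members, IER3, SRF and NAB1, against 1075 of 12718 genes. IER3 averaged 46.7 ± 3.25 CPM in LKB1-deficient PBS libraries and 39.7 ± 1.92 CPM in LKB1-intact PBS libraries (edgeR adjusted p = 0.112). SRF averaged 53.0 ± 3.68 CPM in LKB1-deficient PBS libraries and 62.7 ± 3.27 CPM in LKB1-intact PBS libraries (edgeR adjusted p = 0.129). The libraries of the genotypes did not overlap for these 3 members, none of them called. How many of all genes separate in the same way was not counted. With 3 libraries a side, an exact permutation test cannot give a p under 0.1, so the separation decides nothing. With no filter on low counts, IER3 (edgeR adjusted p = 0.0164) and SRF (edgeR adjusted p = 0.021) passed.

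**Figure D4:**
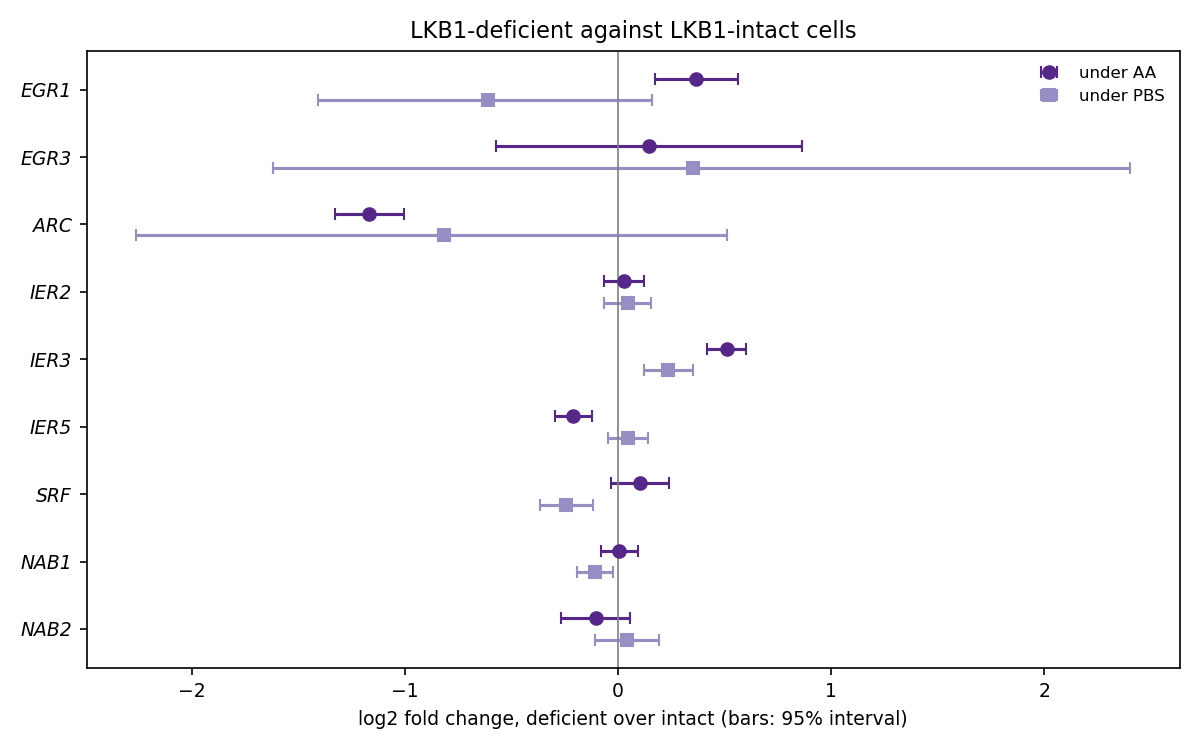
Fitted log2 fold change of LKB1-deficient over LKB1-intact cells for the 9 genes tested, under AA (dark circles) and under PBS (light squares), with 95% intervals; for EGR1, EGR3 and ARC under PBS the scaled count ratio and its counting interval are drawn. ARC lies at -1.17 and IER3 at 0.51 under AA, and the bars of EGR1, EGR3 and ARC under PBS are wide because those libraries hold few counts.

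The genes around SRF were read from lists of its cofactors and targets. Of 5 tested SRF cofactors, 1 rose and 4 fell under AA in each genotype, with a median log2 change of -0.80 in deficient and -0.59 in intact cells, against a median of 0.01 over all genes in each. Of all genes tested, 37.0% rose and 37.4% fell in deficient cells, and 34.5% rose and 35.2% fell in intact cells. With the offset for transcript length the list's medians were -0.45 in deficient and -0.24 in intact cells. ELK4, a ternary complex factor, averaged 60.7 ± 0.844 CPM in LKB1-deficient AA libraries and 127.7 ± 3.09 CPM in LKB1-deficient PBS libraries (log2 -1.07, edgeR adjusted p = 2.17e-14), and in intact cells it fell by 1.17 on the log2 scale (edgeR adjusted p = 1.14e-14). MRTFB, a coactivator released by actin polymerization, fell by 0.90 in deficient and 0.59 in intact cells, and its fall was larger in deficient cells (difference -0.31, edgeR adjusted p = 0.00472, not called on FPKM with limma adjusted p = 0.203). MRTFA fell by 0.80 in deficient cells and by 0.67 in intact cells. ELK1 fell by 0.34 and 0.27, and ELK3 is the 1 cofactor that rose. MYOCD, the muscle cofactor, had at most 5 counts in a library and was not tested.

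Of 17 tested cytoskeletal genes described as SRF and MRTF targets, 3 rose and 11 fell under AA in deficient cells (median -0.29), and 4 rose and 9 fell in intact cells (median -0.09). The share called in either direction was 74.4% of all genes in deficient and 69.8% in intact cells, close to that of the list. By direction, 37.0% of all genes rose and 37.4% fell in deficient cells, and 34.5% rose and 35.2% fell in intact cells. The actin genes ACTB and ACTG1 and the myosin heavy chain MYH9 fell in deficient cells by 0.74, 0.91 and 0.93 on the log2 scale. In intact cells ACTB was not called, with a log2 change of -0.05 and edgeR adjusted p = 0.128, and ACTG1 fell by 0.13 (edgeR adjusted p = 0.000126). The difference between genotypes was -0.70 for ACTB (edgeR adjusted p = 2.57e-12) and -0.78 for ACTG1 (edgeR adjusted p = 4.13e-13). FHL2, a LIM-domain cofactor, rose to 154.2 ± 1.53 CPM in LKB1-deficient AA libraries, against 62.2 ± 4.25 CPM in LKB1-deficient PBS libraries (SD, n = 3 each), and its rise exceeded that in intact cells by 1.06 (edgeR adjusted p = 2.26e-11). In intact cells MYH9 fell by 0.64, the focal adhesion genes ZYX and VCL fell by 0.63 and 0.52, and the tropomyosin TPM2 rose by 0.43. ZYX and VCL also fell in deficient cells, by 0.16 and 0.61, and TPM2 also rose there, by 0.16. Under PBS 0 of the 17 were called, where 0.275% of all genes were. Under AA, 3 of the 17 were higher and 13 lower in deficient than in intact cells, against 28.7% and 30.3% of all genes. The difference in AA change was called positive for 3 and negative for 9, against 21.6% and 23.0% of all genes.

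Of 11 tested genes of the ERK cascade and its nuclear kinases, 4 rose and 5 fell in each genotype under AA, a share called near the 74.4% of all genes in deficient and 69.8% in intact cells. MAPK3, which encodes ERK1, rose by 0.57 in intact and 0.44 in deficient cells. RPS6KA5, which encodes the histone kinase MSK1, rose by 0.72 in deficient and 0.50 in intact cells. The difference between genotypes was called for neither (edgeR adjusted p = 0.269 for MAPK3 and 0.239 for RPS6KA5). The split in intact cells became 5 up and 2 down with upper quartile scaling and 6 up and 2 down with the offset for transcript length, and that in deficient cells became 6 up and 3 down on log2(FPKM + 1). The fall of RPS6KA3, by 0.40 in deficient and 0.26 in intact cells, was not called in deficient cells on FPKM (limma adjusted p = 0.277) or in intact cells with that offset (edgeR adjusted p = 0.279). These are mRNA levels, and phosphorylation was not measured.

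Of 14 tested genes described as EGR1 targets, 5 rose and 7 fell under AA in deficient cells (median -0.11), and 3 rose and 7 fell in intact cells (median -0.11, and 0.13 with 6 up and 5 down under the offset for transcript length). Here too the share called was near the 74.4% of all genes in deficient and 69.8% in intact cells. CDKN1A, the cell-cycle inhibitor p21, averaged 117.0 ± 4.43 CPM in LKB1-deficient AA libraries and 26.6 ± 1.96 CPM in LKB1-deficient PBS libraries, and 110.0 ± 4.62 CPM in LKB1-intact AA libraries and 24.8 ± 0.751 CPM in LKB1-intact PBS libraries (SD, n = 3 each). It rose by 2.14 in deficient cells (edgeR adjusted p = 8.99e-19) and by 2.15 in intact cells (edgeR adjusted p = 4.32e-18). The growth factor gene VEGFA and the protease gene PLAU rose by 1.60 and 2.12 in deficient cells, and exceeded their change in intact cells by 1.12 (edgeR adjusted p = 2.78e-11) and 1.97 (edgeR adjusted p = 1.91e-09). The tissue factor gene F3 fell by 0.81 in deficient cells and by 1.43 in intact cells. ICAM1 fell by 1.02 in intact cells and by 0.43 in deficient cells. FGF2 fell by 0.88 in intact cells and rose by 0.27 in deficient cells (difference 1.15, edgeR adjusted p = 9.69e-14). FN1, which encodes fibronectin, was the 1 listed gene called under PBS, lower in deficient cells by a log2 of -0.34 (edgeR adjusted p = 0.0449), and it was not called on FPKM (limma adjusted p = 0.531).

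**Figure D5:**
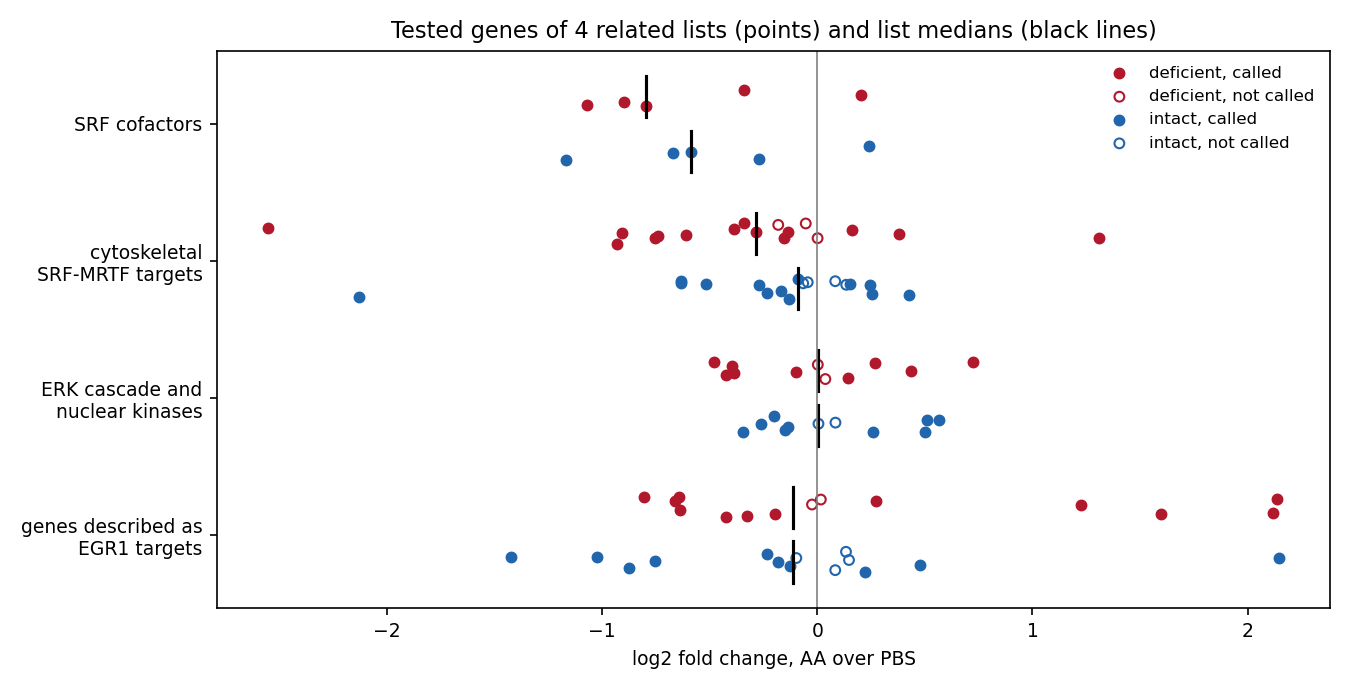
Fitted log2 fold change of AA over PBS for the tested genes of 4 related lists, in LKB1-deficient cells (red, upper row of each list) and LKB1-intact cells (blue, lower row); filled points were called at an adjusted p under 0.05, and black lines are list medians. The medians of the SRF cofactors lie at -0.80 and -0.59 (-0.45 and -0.24 with the offset for transcript length), and those of the ERK cascade at 0.

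Among relatives outside the set, IER5L rose by 0.64 in deficient cells (edgeR adjusted p = 2.7e-05) and by 0.46 in intact cells (edgeR adjusted p = 0.00112). EGR4 had 11 counts over the 12 libraries and WT1, whose protein binds a site like that of EGR1, had 0.

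The genes whose profile over the 4 group means lay nearest to that of EGR1, among 11894 genes with a mean log2 CPM of at least 0, were RASD1, FOS and ABCG1, with root mean square differences of 0.514, 0.526 and 0.643 on the log2 scale. Nearest to ARC were FOS, RASD1 and KIAA1549L, at 0.920, 1.16 and 1.36. FOS, the partner of JUN in AP-1, averaged 51.1 ± 4.15 CPM in LKB1-deficient AA libraries and 2.18 ± 0.115 CPM in LKB1-deficient PBS libraries, and 87.6 ± 3.79 CPM in LKB1-intact AA libraries and 1.71 ± 0.451 CPM in LKB1-intact PBS libraries (SD, n = 3 each). RASD1, a small GTPase, averaged 4.44 ± 0.881 CPM in LKB1-deficient AA libraries and 8.59 ± 1.53 CPM in LKB1-intact AA libraries. Its PBS means were near the floor, at 0.163 ± 0.0938 CPM in LKB1-deficient and 0.214 ± 0.138 CPM in LKB1-intact libraries. FOS and RASD1, like ARC, had their higher mean in intact AA libraries, and ABCG1, a cholesterol exporter, like EGR1, in deficient ones, at 21.9 ± 1.95 CPM in LKB1-deficient AA libraries and 15.6 ± 0.929 CPM in LKB1-intact AA libraries. The likeness is over 4 group means and carries no test.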

How the data were processed

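RNA was sequenced from 12 libraries of A549 cells, grouped by their genotype and treatment labels. The submitters' processing notes name RSEM (no version), HISAT2 2.1.0, Bowtie2 2.2.8, StringTie 1.3.1 and fastp 0.18.0. What each tool did, the genome build and the strand setting are not stated in those notes. Estimated counts and FPKM values were deposited by the authors for 20323 genes. Between 10.9 and 11.5% of a library's deposited estimated counts were not whole, and they were rounded. Replicates differed by more than sampling noise (chi-square per degree of freedom 2.01 to 4.26). Each library was entered as 1 sample, and this spread cannot tell separate cultures from technical repeats.

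A single quasi-likelihood model of all 12 libraries was fitted in edgeR 4.0.16 (R 4.3.3), with TMM factors and group as the factor, after filterByExpr at a minimum count of 10, which kept 12718 genes. The threshold for a call was an adjusted p of 0.05 (Benjamini-Hochberg over all genes). Standard errors are the log2 change over the square root of F, which understates counting error where a group holds few counts, so ratios of summed counts are given there. The steps were tested on simulated counts. Alternatives were DESeq2 1.42.0, limma 3.58.1 on log2(FPKM + 1) or log2(FPKM + 0.1), other factors and filters, a transcript length offset, a replicate block, fits to only the libraries compared, and fits without each library in turn.

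The members, lists and tests were chosen with earlier results of these data known. No p is given for the AA change of ARC or EGR1, already seen there, of EGR3, which like ARC passed the filter only through AA libraries, or of EGR2, which did not pass, nor for the difference in AA change of ARC and EGR3. Named by rule were the members, STK11, of each list up to 4 called genes of smallest p in a comparison (or 2 as values where none was called), and the 3 nearest profiles of EGR1 and ARC. Some genes that this rule takes are not reported here. ELK3 and the listed genes too low to test were named after their values were seen. Marker lists were epithelial, leukocyte, endothelial, fibroblast and neuronal. Intervals of count ratios cover counting error only, and the folds over the EGR2 floor leave out the counting error of the AA libraries. Positions follow GENCODE 29 on GRCh38, with no match to the build of the deposited tables.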

Additional observations from a re-analysis of the deposited data

Results flagged for a closer look

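The AA effect differed between the genotypes, by the test of the difference itself in edgeR, for 4 members. EGR1 rose more in LKB1-deficient than in LKB1-intact cells, with a difference of 0.97 on the log2 scale. IER3 rose more in deficient cells as well, with a difference of 0.27. IER5 rose less in deficient cells, with a difference of -0.25. SRF fell less in deficient cells, with a difference of 0.35. Each difference also holds the gap between the genotypes under PBS, which was called for none of the 4. For EGR1 the PBS counts are too few to decide that gap. Deficient over intact, the log2 gap of SRF was -0.24 under PBS and 0.10 under AA, neither called. It was -0.60 and 0.37 for EGR1, 0.24 and 0.51 for IER3, and 0.04 and -0.21 for IER5. Of the 4, only SRF kept its call under each of the 23 alternatives that gave a value. The share of counts from mitochondrial protein genes was 2.53 to 2.62% in LKB1-deficient AA libraries and 3.61 to 3.72% in LKB1-intact AA libraries, and its part in these differences was not tested.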

How the results depend on the processing

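Under 24 alternatives, 863 of 875 tested values of members kept their direction where called and their side of the threshold, 8 calls were lost, 4 were gained and 0 called values changed sign. The 6 members tested for AA were called in each genotype under all 24. The count for the difference in AA effect was 3 to 5 of 7 (3 to 4 when leaving out each library), and that for the genotypes under AA ran from 3 of 8 on log2(FPKM + 0.1), where EGR3 was not tested, to 5 of 9 (4 when leaving out each library). Under PBS the count was 2 with no filter on low counts and 0 under all others. The numbers of the labels do not pair the samples (correlations of same-numbered deviations -0.0939 to 0.0537), and the replicate block changed 0 calls of members. The libraries of a comparison alone give no value for the difference, which uses all 12. Depth limits EGR2, EGR3, and EGR1 and ARC under PBS, where libraries hold under 20 counts.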
